A study of Homo sapiens with 10 samples.

Results

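The comparison described here sets the DMSO control culture of H358 against the DMSO control cultures of PC9 and PC9M, 3 human lung adenocarcinoma cell lines, in a study of what the ABL kinases do to the transcriptome of non-small cell lung cancer. The members are 3 of the 10 RNA sequencing libraries, the DMSO control of each line, chosen by their labels and not by any measured value. H358 and PC9 are established lines. PC9 is known for an activating EGFR mutation. By its label PC9M forms more metastases in bone and brain, PC9 metastasises in general, and H358 was not tested. All 3 control cultures were grown in RPMI1640 medium with fetal bovine serum and received DMSO without GNF5 for 72 h, by the treatment label. GNF5 is an allosteric inhibitor of the ABL kinases. The GNF5 cultures of the same lines, which appear beside some results, were treated for 72 h, at a dose that the labels write as 10 mM for H358 and PC9 and 20 mM for PC9M. PC9 and PC9M were also transduced with scrambled shRNA or with shRNAs against ABL1 and ABL2, in 8 µg/mL polybrene. Each group holds 1 library, so no value below carries an error between replicates, no test was made, and every difference describes these libraries. PC9M bears the name of PC9 and may not be independent of it, and each line sits in a table of its own, so that line, culture and table cannot be told apart.

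Levels are FPKM, fragments scaled to transcript length and library size, as the authors deposited them, with each table scaled separately. The H358 table numbers its second sample differently from the other 4, so a further culture may have shared its run and scaling, which was not tested. No counts are listed, so the read depth is unknown. A difference is H358 minus the other line in log2(FPKM + 1), after each library was centred on its median over the 10207 genes with at least 1 FPKM in all 3. Without centring, H358 would lie higher by 0.27 against PC9 and 0.17 against PC9M on the log2 scale. The pseudocount of 1 makes a difference understate the change of genes with low levels. A gene is counted as higher or lower where it was at least 2-fold apart from both lines in the same direction, among the 13678 genes that reached 1 FPKM in any of the 3 libraries. The 2 differences share the H358 library and are given side by side.

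Type I interferons act through receptors that activate transcription factors, STAT2 and IRF9 among them, which bind a short element in the promoters of antiviral genes. TP63 and NKX2-1 are transcription factors that mark different airway fates: TP63 marks basal and squamous cells, and NKX2-1 the lung epithelial lineage. NRF2 is a transcription factor that drives genes of glutathione synthesis, aldo-keto reduction and drug export, and EGFR feeds the MAPK pathway.

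H358 was at least 2-fold higher than both lines for 1405 genes, 10.3% of those tested, and lower for 881 genes, 6.44%. These shares are the background for every count of list members called below. The balance rests on the centring: it was 1945 higher and 634 lower without centring, and 1011 higher and 1222 lower with centring on ribosomal protein genes. A further 210 genes were at least 2-fold apart from PC9 and PC9M in opposite directions. The H358 control also had more genes at 1 FPKM or more, 12466 against 11411 in PC9 and 11777 in PC9M. Fewer were listed at 0 in it, 3563 against 4634 and 3871. The part of this in the counts was not tested. In the epithelial markers EPCAM, CDH1, KRT8, KRT18 and KRT19 all 3 libraries were well above 1 FPKM, so the label of an epithelial line is borne by each. Of 4 leukocyte markers, 1 reached 1 FPKM in H358, as did 1 in PC9 and 0 in PC9M, with a summed level between 1.03 and 2.66 FPKM. Of the 4 fibroblast markers, COL1A1 and LUM passed 1 FPKM in H358, where the sum was 13.2 FPKM against 1.58 in PC9 and 2.999 in PC9M, and DCN was listed at 0 in all 3. The endothelial markers PECAM1 and CDH5 summed to 0.378 FPKM in H358, 31.5 in PC9 and 3.77 in PC9M. The part of other cells in any result was not tested, and in such bulk libraries fewer cells of a type and less RNA per cell cannot be told apart.

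Interferon response genes had the highest list median when both differences were averaged, 2.72, with metallothioneins next at 2.29. Against PC9 alone, and also in the GNF5 libraries, with scrambled libraries or with a pseudocount of 5 FPKM, the 6 metallothioneins stood higher. IFI27, an interferon-induced mitochondrial protein and one of the markers given for H358, was listed at 242 FPKM in H358, 0 in PC9 and 0.616 in PC9M. The gene lies at chr14:93646832-93652786 in hg18, the build of the tables. With PC9 at 0 it is given no fold against that line, and its difference to PC9M was 7.06. The promoters of the 4 members with the largest smaller difference that RefSeq's table holds are shown. They were taken whether or not they match the element through which this response is known to act. They run from 250 bases before to 50 after the start, 5′ to 3′ on the gene's strand, in GRCh38.p14. Capitals mark every match to GAAANNGAAA, a core of the interferon-stimulated response element, or to its reverse complement.

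IFI27, chr14:94110486-94110785, plus strand: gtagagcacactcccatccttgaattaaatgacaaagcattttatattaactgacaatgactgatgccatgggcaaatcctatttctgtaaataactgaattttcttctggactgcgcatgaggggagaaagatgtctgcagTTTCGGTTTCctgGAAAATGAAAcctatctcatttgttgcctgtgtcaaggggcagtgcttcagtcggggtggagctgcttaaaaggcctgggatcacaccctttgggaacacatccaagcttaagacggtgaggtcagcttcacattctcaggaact

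IFI44, chr1:78649539-78649838, plus strand: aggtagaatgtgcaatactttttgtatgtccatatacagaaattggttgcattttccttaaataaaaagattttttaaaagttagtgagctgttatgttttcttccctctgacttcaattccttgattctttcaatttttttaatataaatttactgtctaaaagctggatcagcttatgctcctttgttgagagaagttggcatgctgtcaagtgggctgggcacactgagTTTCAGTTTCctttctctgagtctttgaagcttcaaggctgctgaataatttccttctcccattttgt

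IFI6, chr1:27672143-27672442, minus strand: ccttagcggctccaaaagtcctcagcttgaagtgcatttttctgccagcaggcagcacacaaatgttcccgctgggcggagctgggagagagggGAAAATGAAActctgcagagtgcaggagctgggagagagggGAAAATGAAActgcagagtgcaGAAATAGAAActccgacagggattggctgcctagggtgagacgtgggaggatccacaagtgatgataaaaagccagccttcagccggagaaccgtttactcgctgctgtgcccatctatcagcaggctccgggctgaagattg

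IFI44L, chr1:78620198-78620497, plus strand: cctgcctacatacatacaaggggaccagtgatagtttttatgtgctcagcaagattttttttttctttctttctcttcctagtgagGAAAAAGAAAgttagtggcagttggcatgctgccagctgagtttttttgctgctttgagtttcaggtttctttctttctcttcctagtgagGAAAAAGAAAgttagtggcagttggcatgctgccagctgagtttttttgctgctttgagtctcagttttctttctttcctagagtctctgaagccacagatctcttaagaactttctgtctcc

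All 4 promoters held a match, 3 of them in IFI6, 2 each in IFI27 and IFI44L and 1 in IFI44. IFI27 and IFI44 have 2 promoters in the table, and the first one listed is printed. Among 29 of the 36 interferon response genes with a promoter in the table, 23 held GAAANNGAAA on either strand, beside 3.57% of all 35116 promoters and 3.81% of the 10387 protein-coding genes tested here. Of the 17 that were called higher in H358 14 held it, as did 9 of the other 12, so the match did not separate called from other members. The longer GAAANNGAAAC, which overlaps it, was in 19 of the 29, beside 1.10% of the tested genes and 0.795% of promoters. These letters were chosen with the interferon result known, and a match is a description of the sequence.

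Of the 36 listed interferon response genes 34 reached 1 FPKM in 1 of the 3 libraries, and TRIM22 and XAF1 did not. Of these, 23 were called higher and 0 lower, beside the background of 10.3% and 6.44%. Their median difference was 2.97 to PC9 and 2.53 to PC9M, while the medians over all genes tested were 0.12 and 0.04. IFI6, which guards mitochondria and the endoplasmic reticulum in infected cells, was listed at 197 FPKM in H358, 0.228 in PC9 and 6.52 in PC9M, with differences of 7.06 and 4.55. BST2, or tetherin, which holds budding virus at the cell surface, stood at 137 FPKM in H358, 0.0419 in PC9 and 12.7 in PC9M. IFITM2, which blocks viral entry, was at 48.8 FPKM in H358, 0.218 in PC9 and 1.19 in PC9M. All 3 were highest in H358 and lowest in PC9 among the controls. IFI44, a cytoplasmic interferon-induced protein, was at 39.8 FPKM in H358, 0.0124 in PC9 and 0.0356 in PC9M, with differences of 5.06 and 5.13. OASL, a relative of the 2′-5′ oligoadenylate synthetases, was at 30.6 FPKM in H358, 0.319 in PC9 and 0.304 in PC9M. The classical members IFIT1, MX1 and ISG15 were called higher too, although they fall outside the rule for named genes and were picked after their values were seen. ISG15, a ubiquitin-like modifier, was at 262 FPKM in H358, 50.4 in PC9 and 10.8 in PC9M, so that PC9 lay above PC9M for it. Members that did not pass included IFI35, at 10.99 FPKM in H358, 9.01 in PC9 and 11.01 in PC9M, and EIF2AK2, the double-stranded RNA kinase, at 19.4 FPKM in H358, 10.2 in PC9 and 23.1 in PC9M.

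The interferon result depended on which PC9M culture stood for that line. The median level of the 36 genes was 18.4 FPKM in the H358 control, 0.178 in the PC9 control and 1.75 in the PC9M control, but 7.38 in scrambled PC9M and 19.2 in PC9M with ABL shRNAs. The H358 control was above all 4 PC9 libraries for 35 of the 36 genes and above both the DMSO and GNF5 libraries of PC9M for 32. It was above scrambled PC9M for 23 and above PC9M with ABL shRNAs for 18. IFI27 itself was at 25.2 FPKM in scrambled PC9M and 74.3 in PC9M with ABL shRNAs, against 68.03 in H358 with GNF5. With the scrambled libraries of PC9 and PC9M in place of their DMSO libraries, the list's median (mean of both differences) was 1.996 instead of 2.72. All 36 genes were also lower in the GNF5 library of H358 than in its control, and the list's median difference between lines was 1.77 in the GNF5 libraries over the same 34 genes, and 1.96 over those that reached 1 FPKM in them.

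**Figure D1:**
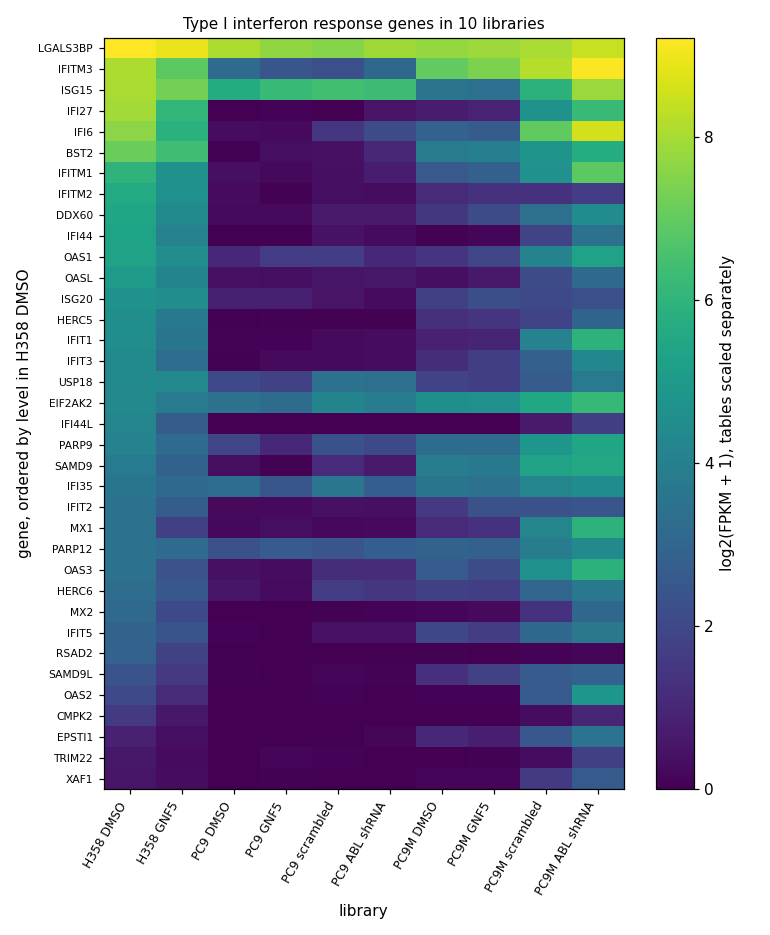
Colour gives log2(FPKM + 1) of the 36 interferon response genes (rows, ordered by the H358 control) in the 10 libraries (columns), 1 library each. H358 is bright and PC9 dark, and the PC9M libraries with shRNAs are brighter than the PC9M DMSO and GNF5 libraries, where the medians were 7.38 and 19.2 FPKM against 1.75 and 2.29.

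Genes that sense nucleic acid or carry the interferon signal differed less. Of the 20 measured, 5 were called higher and 0 lower, with medians of 0.17 and 0.33. TMEM173, which encodes the DNA-sensing adaptor STING, was listed at 53.1 FPKM in H358, 5.97 in PC9 and 2.65 in PC9M. IRF9, the DNA-binding partner of STAT2, was at 52.1 FPKM in H358, 6.21 in PC9 and 3.996 in PC9M. IFIH1, the RNA sensor MDA5, was at 14.3 FPKM in H358, 0.380 in PC9 and 1.46 in PC9M. These 3 together with IRF7 and IRF1 made up the called genes.

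Among the 16 genes of MHC class I and peptide loading 6 were called higher and 1 lower, with medians of 1.29 and 0.89. HLA-F, a non-classical class I chain, was at 32.9 FPKM in H358, 4.56 in PC9 and 0.755 in PC9M. HLA-B, a classical class I chain, was at 171 FPKM in H358, 21.8 in PC9 and 19.5 in PC9M. B2M, the light chain shared by all class I molecules, was at 1181 FPKM in H358, 239 in PC9 and 297 in PC9M. These HLA genes are close copies of one another and their reads can be split between them, so their separate levels are uncertain. PSMB9, an immunoproteasome subunit, was at 11.1 FPKM in H358, 0.0465 in PC9 and 12.5 in PC9M, low in PC9 alone. ERAP2, a peptide-trimming peptidase, was the member called lower, at 1.34 FPKM in H358, 3.48 in PC9 and 10.6 in PC9M. Class II genes were barely present, with 3 of 10 reaching 1 FPKM in any line and HLA-DRB1, the one called, at 1.98 FPKM in H358, 0 in PC9 and 0.268 in PC9M.

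The other given marker, TP63, was at 34.4 FPKM in H358, 0.259 in PC9 and 0.162 in PC9M, with differences of 4.54 and 4.76. It lies at chr3:190831910-191097762 in hg18. All 8 PC9 and PC9M libraries were at or below 0.606 FPKM, and H358 with GNF5 was at 5.66. SOX2, a transcription factor of basal and foregut cells, was at 25.8 FPKM in H358, 0.0227 in PC9 and 0.0417 in PC9M, and S100A2, a calcium-binding protein of basal cells, at 258 FPKM in H358, 2.88 in PC9 and 3.03 in PC9M. The rest of the squamous list did not follow them. Of 21 measured members 3 were called higher, those 3, and 3 lower, with medians of -1.43 to PC9 and 0.32 to PC9M. The keratins that define stratified epithelium were high in PC9 alone: KRT16 stood at 1.05 FPKM in H358, 458 in PC9 and 4.05 in PC9M. KRT5, the basal keratin, was at 1.73e-05 FPKM in H358, 12.6 in PC9 and 0.0649 in PC9M, and KRT14, its partner, at 0.480 FPKM in H358, 25.02 in PC9 and 0.0555 in PC9M. TRIM29, KRT16 and KRT6B were the members called lower. H358 thus had TP63 without KRT5, KRT14 or DSG3 above 1 FPKM, and the marker names no squamous type here.

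Genes of the cornified envelope and the calgranulins, made late in squamous differentiation, were mostly lower in H358, with 8 of 15 called lower and 2 higher and medians of -2.34 and -1.41. S100A9, a calgranulin, was at 0.123 FPKM in H358, 748 in PC9 and 272 in PC9M. KLK5, a serine protease of the skin, was at 0.0168 FPKM in H358, 341 in PC9 and 106 in PC9M. GRHL3, a transcription factor of the skin barrier, was at 0.556 FPKM in H358, 6.15 in PC9 and 2.28 in PC9M. The 2 on the other side were KRT4, a keratin of non-cornified epithelium, at 60.3 FPKM in H358, 2.31 in PC9 and 2.30 in PC9M, and the epithelial factor ELF3 at 118 FPKM in H358, 41.2 in PC9 and 49.5 in PC9M. KRT13, the partner of KRT4, went another way, at 0.109 FPKM in H358, 879.9 in PC9 and 0.274 in PC9M.

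Some lung lineage factors were far apart from both lines. NKX2-1, which specifies lung epithelium, was at 92.1 FPKM in H358, 0.0130 in PC9 and 0.0102 in PC9M, with differences of 6.25 and 6.35. HOPX, a homeodomain protein of alveolar type 1 cells, was at 54.04 FPKM in H358, 0.286 in PC9 and 0.367 in PC9M. FOXA2, a pioneer factor of endoderm, was at 18.8 FPKM in H358, 0.146 in PC9 and 0.389 in PC9M. NAPSA, an aspartic protease that processes surfactant protein B, was at 9.47 FPKM in H358, 1.37 in PC9 and 0.217 in PC9M. CEBPA, a factor of alveolar type 2 cells, stood on the other side at 0.129 FPKM in H358, 9.16 in PC9 and 7.13 in PC9M. The 5 lineage markers NKX2-1, SFTPB, NAPSA, SFTPA1 and SFTPA2 summed to 102 FPKM in H358, of which NKX2-1 made 92.1, and to 16.6 in PC9, where SFTPB made 15.2. Of 14 measured members of the list 5 were called higher and 1 lower, with medians of 0.69 and 0.36, and with GNF5 the median (mean of both differences) was 0.07. With no minimum level that median was -0.20, beside 0.67 with it.

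Of protein-coding genes listed above 0 in all 3 libraries, ranked by the smaller of the 2 differences, SNRPN, NKX2-1, CPE, S100A2, MMP13, HOPX, IFI44, IFI16, TPPP3, MOXD1, EMB, APOE, CRIP2, SYT1 and NREP were the 15 highest, down to a difference of 4.66. SNRPN, a spliceosomal protein read from the paternal copy of its imprinted region, was at 165 FPKM in H358 and numerically at 0 in both other lines, at 6.92e-11 in PC9 and 8.35e-12 in PC9M. MMP13, a collagenase, was at 47.1 FPKM in H358, 0.0942 in PC9 and 0.132 in PC9M. APOE, the lipid carrier, was at 95.8 FPKM in H358, 1.76 in PC9 and 0.782 in PC9M. IFI16, a nuclear DNA sensor induced by interferon, was at 45.999 FPKM in H358, 0.00342 in PC9 and 0.308 in PC9M. CRIP2, a LIM domain protein, was at 683 FPKM in H358, 1.92 in PC9 and 20.6 in PC9M, and its difference to PC9 of 7.60 was larger than that of SNRPN. Genes at 0 in both PC9 and PC9M get no fold: MT1E at 515 FPKM in H358, PAGE5 at 259, MAEL at 125, MID1IP1 at 72.02, and the near-identical XAGE1A and XAGE1D both at 48.1, which count as 1 value. UBE2M, named after its value was seen, was at 40.8 FPKM in H358 and 0.0597 or less in every PC9 and PC9M library. Whether such a listed 0 means absent RNA or reflects how a gene was assigned was not tested.

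The 15 lowest were AKR1C1, AKR1B10, AKR1C2, S100A9, KLK5, AKR1C3, SULF2, CACNG6, RPL21, NLRP2, LCN2, CMBL, PXDN, ABCC2 and CALB2, up to a difference of -5.13. RPL21 and NLRP2 carry a status other than a completed test in the tables, and RPL21, a ribosomal protein with many pseudogene copies, is uncertain. SULF2, a sulfatase of heparan sulfate, was at 0.0336 FPKM in H358, 498 in PC9 and 92.5 in PC9M. CALB2, the calcium-binding calretinin, was at 1.30 FPKM in H358, 323 in PC9 and 70.4 in PC9M. PXDN, a peroxidase of basement membranes, was at 0.355 FPKM in H358, 41.6 in PC9 and 47.1 in PC9M. Genes listed at 0 in H358 alone were led by UGT1A6, at 169.5 FPKM in PC9 and 493 in PC9M, which shares exons with its neighbours in the UGT1A locus. MAL, a raft protein of apical transport, followed at 169 and 145 FPKM, then NGFRAP1, PI3, VGLL1 and OLFML3.

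**Figure D2:**
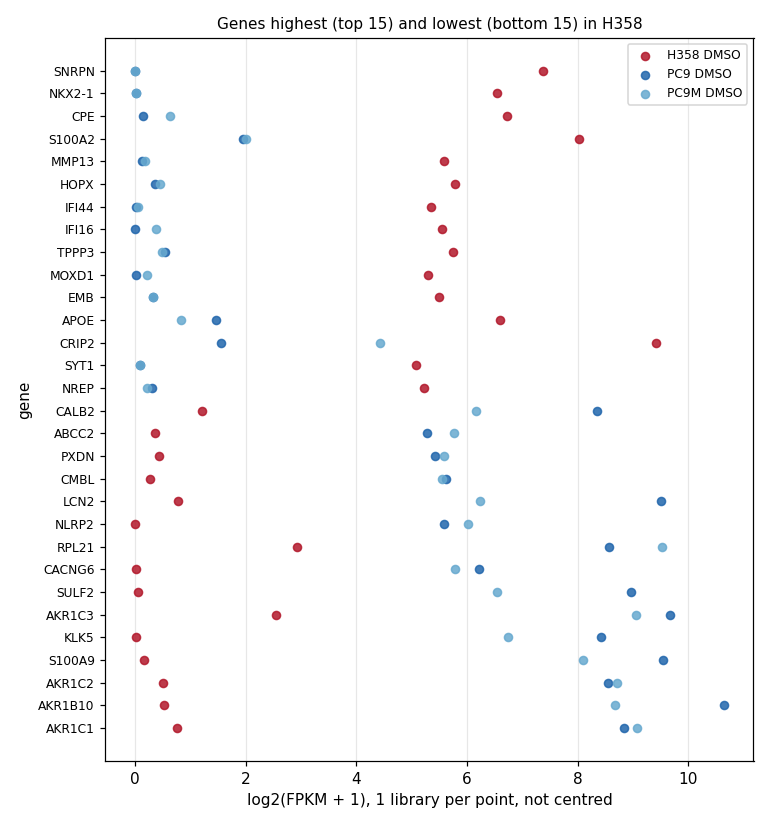
Points give log2(FPKM + 1), not centred, of the 15 genes highest in H358 (upper rows) and the 15 lowest (lower rows) in the 3 control libraries, 1 library per point. For each gene of either set the H358 point stands apart from both other points, and PC9 and PC9M are also apart from each other for some genes, CRIP2, LCN2 and CALB2 among them.

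NRF2 targets were among the lists that were lower in H358, with the cornified envelope list and the list of HOX and homeobox genes. Of 25 genes 13 were called lower and 0 higher, with medians of -1.30 to PC9 and -1.65 to PC9M. AKR1B10, an aldo-keto reductase of retinal and other aldehydes, was at 0.445 FPKM in H358, 1599 in PC9 and 409.7 in PC9M, with differences of -10.38 and -8.32. AKR1C1, which reduces progesterone, was at 0.692 FPKM in H358, 454 in PC9 and 536 in PC9M, and AKR1C2 at 0.421 FPKM in H358, 371 in PC9 and 419.9 in PC9M. AKR1C1, AKR1C2 and AKR1C3 are neighbouring close copies, so reads may be split between them, but each was far below either line in H358. ABCC2, an exporter of glutathione conjugates, was at 0.287 FPKM in H358, 37.9 in PC9 and 53.6 in PC9M. GPX2, a glutathione peroxidase, was at 6.32 FPKM in H358, 178 in PC9 and 165 in PC9M. Other members differed little: NQO1, the quinone reductase often used to read NRF2 activity, was at 336 FPKM in H358, 299.5 in PC9 and 468 in PC9M, and HMOX1, heme oxygenase, at 11.97 FPKM in H358, 14.5 in PC9 and 10.7 in PC9M, both named after their values were seen. In the GNF5 libraries the list median (mean of both differences) was -1.43, beside -1.56 in the controls. The core TGACNNNGC of the antioxidant response element, on either strand, was found in 6 of 18 members with a promoter in the table, beside 19.4% of tested genes and 13.3% of all promoters. Its longer form TGACNNNGCA was in 4 of the 18, beside 3.98% of tested genes and 3.18% of promoters. Of 9 members called lower 3 held the core, as did 3 of the other 9. The longer form was in 3 of the 9 called lower and 1 of the other 9.

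**Figure D3:**
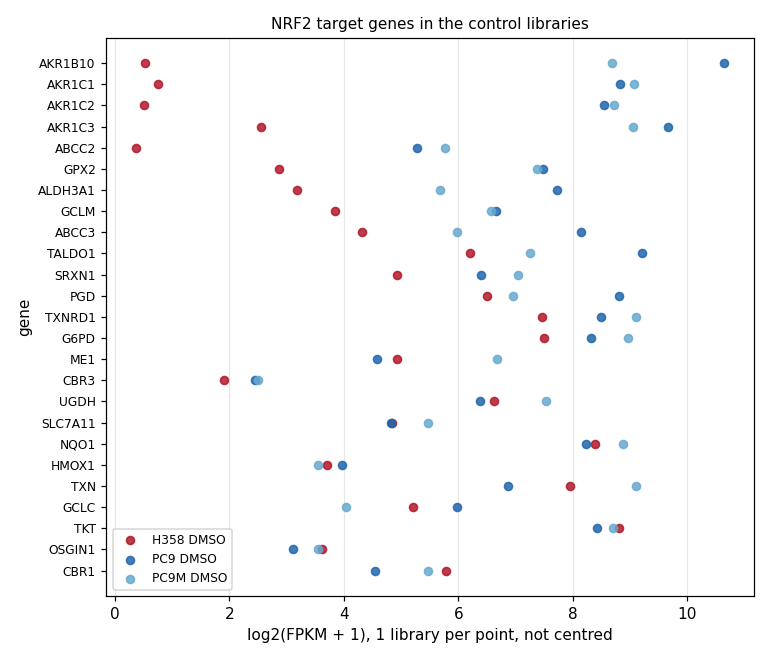
Points give log2(FPKM + 1), not centred, of the 25 NRF2 target genes in the 3 control libraries, 1 library per point, ordered from the largest deficit in H358 at the top. The upper rows, from AKR1B10 to GPX2, show H358 far to the left of both lines, and the lower rows show all 3 lines close together or PC9 and PC9M on either side.

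EGFR, the receptor, was at 6.60 FPKM in H358, 97.5 in PC9 and 86.2 in PC9M, with differences of -3.97 and -3.69. Several ligands of its family were higher. AREG, or amphiregulin, was at 140.0 FPKM in H358, 3.61 in PC9 and 4.54 in PC9M, and EREG, or epiregulin, at 63.4 FPKM in H358, 4.89 in PC9 and 3.03 in PC9M. NRG1, a ligand of ERBB3, was at 8.18 FPKM in H358, 0.221 in PC9 and 1.24 in PC9M. HBEGF differed, high in PC9 alone at 4.78 FPKM in H358, 139.9 in PC9 and 8.01 in PC9M. Among 13 measured members 4 were called higher, EGF being the fourth, and 1 lower. ABL1 and ABL2, the kinases the study is about, were not called, at 19.96 FPKM in H358, 17.995 in PC9 and 9.99 in PC9M and at 6.91 FPKM in H358, 4.16 in PC9 and 3.63 in PC9M. The list of MAPK feedback genes also holds transcription factors, MYC, ETV1 and ETV4 among them. It was mixed, with 5 of 18 higher and 2 lower, beside 10.3% and 6.44% of all genes tested. SPRED1, an inhibitor of RAF activation, was at 25.3 FPKM in H358, 2.83 in PC9 and 8.30 in PC9M, and ETV1, an ETS factor, at 6.79 FPKM in H358, 0.657 in PC9 and 0.0672 in PC9M. On the other side MYC was at 38.9 FPKM in H358, 246 in PC9 and 115 in PC9M and ETV4 at 13.5 FPKM in H358, 64.7 in PC9 and 28.5 in PC9M. Among other receptor tyrosine kinases 3 of 22 were higher, MET, MERTK and NTRK2, and 6 lower. MET, the receptor of hepatocyte growth factor, was at 70.2 FPKM in H358, 16.1 in PC9 and 18.2 in PC9M, and EPHB6, an ephrin receptor without kinase activity, at 0 FPKM in H358, 40.97 in PC9 and 4.48 in PC9M.

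Epithelial and mesenchymal genes gave no single direction. Of 26 epithelial genes 4 were called higher and 6 lower. The simple keratins KRT8, at 743 FPKM in H358, 1881 in PC9 and 3298 in PC9M, and KRT18, at 569 FPKM in H358, 1958 in PC9 and 2920.2 in PC9M, were lower in H358, both with a status other than a completed test, as were KRT7 and KRT19. CLDN3, a tight junction protein, was higher at 89.2 FPKM in H358, 8.18 in PC9 and 24.4 in PC9M. The mesenchymal list had 3 higher and 3 lower of 21. VIM, the intermediate filament vimentin, was at 57.1 FPKM in H358, 1.51 in PC9 and 4.67 in PC9M, and TNC, the matrix protein tenascin C, at 72.1 FPKM in H358, 2.25 in PC9 and 3.001 in PC9M. On the other side AXL, a receptor tyrosine kinase with a marked status, was at 0.233 FPKM in H358, 5.74 in PC9 and 5.75 in PC9M.

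Complement and mucosal defence genes gave calls both ways. Among the members called higher were the complement regulators CFI, the protease that cleaves C3b, at 45.1 FPKM in H358, 0 in PC9 and 0.0161 in PC9M, and CD55, at 147 FPKM in H358, 26.5 in PC9 and 10.8 in PC9M. Antiproteases and antimicrobials of the mucosa were among the lower ones, with LCN2, which binds bacterial siderophores, at 0.710 FPKM in H358, 723 in PC9 and 74.1 in PC9M, SLPI at 5.55 FPKM in H358, 252 in PC9 and 105 in PC9M and DEFB1 at 0 FPKM in H358, 21.5 in PC9 and 9.16 in PC9M. In all 3 of 17 were called higher and 6 lower. Among cytokines CXCL16 was lowest, at 0.522 FPKM in H358, 65.6 in PC9 and 31.4 in PC9M, and CX3CL1, a membrane-bound chemokine, was the member called higher, at 12.98 FPKM in H358, 0.0209 in PC9 and 0.0206 in PC9M. Of 15 cytokines 4 were called lower.

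In the BMP list ID2 and ID4, inhibitors of helix-loop-helix factors, were higher, ID2 at 46.9 FPKM in H358, 0.140 in PC9 and 1.08 in PC9M and ID4 at 16.3 FPKM in H358, 0.0506 in PC9 and 0.148 in PC9M. The antagonists NOG, at 0.0322 FPKM in H358, 6.46 in PC9 and 12.2 in PC9M, and BAMBI, at 0.0141 FPKM in H358, 6.11 in PC9 and 7.93 in PC9M, were lower. The list had 5 higher and 3 lower of 16. The list of HOX and other homeobox genes, called the HOX list here, had 9 of 16 lower and 1 higher, HOXD1. HOX genes set position along the body axis. HOXB7 was at 0 FPKM in H358, 28.1 in PC9 and 13.2 in PC9M, and HOXA3 at 0.287 FPKM in H358, 30.5 in PC9 and 2.60 in PC9M, while HOXD1 was at 4.68 FPKM in H358, 0 in PC9 and 0 in PC9M. Of 19 Wnt ligands and targets 4 were lower, led by WNT6 at 0 FPKM in H358, 48.1 in PC9 and 6.08 in PC9M, and 2 higher, RNF43 and NKD2. NKD2, a Wnt inhibitor, was at 30.6 FPKM in H358, 0 in PC9 and 2.37 in PC9M.

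Metallothioneins, which bind zinc and copper, were mostly low in PC9 alone. MT2A was at 1796 FPKM in H358, 68.4 in PC9 and 1694 in PC9M, and MT1X at 480.0 FPKM in H358, 13.5 in PC9 and 386 in PC9M. MT1E alone was called of 6 measured. Metallothionein genes are close copies of one another, so the separate levels are uncertain. Cell cycle genes lay between the other lines: the 25 mitosis genes had medians of 0.82 to PC9 and -1.35 to PC9M with 0 called, and the 30 replication genes 0.54 and -1.03 with CDT1 alone called, as lower. CDK1 was at 30.3 FPKM in H358, 15.7 in PC9 and 161 in PC9M. Ribosomal protein genes had medians of 0.11 and 0.02, and 2 and 2 of 40 were called higher and lower.

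Other lists held few calls or split between the lines. Their counts stand beside 10.3% higher and 6.44% lower over all genes tested, and some lie near those shares. Of 11 measured cancer-testis antigens, which normal tissues outside the germ line keep silent, 3 were called higher, PAGE5, XAGE1A and GAGE1, and 0 lower. Imprinted genes had 3 of 10 higher, SNRPN, PEG10 and SGCE, with PEG10 at 142 FPKM in H358, 1.95 in PC9 and 58.4 in PC9M. In the integrin list 2 of 14 were higher and 3 lower, with ITGA2, a collagen receptor chain, at 5.31 FPKM in H358, 42.2 in PC9 and 53.1 in PC9M. Among laminins and other basement membrane genes 1 of 14 was higher and 3 lower. YAP/TAZ targets had 2 of 20 higher and 6 lower, with F3, the tissue factor that starts coagulation, at 11.3 FPKM in H358, 45.5 in PC9 and 169 in PC9M. Gut-type and secretory genes had 3 of 13 higher and 0 lower, with medians of -1.07 to PC9 and 0.19 to PC9M. By sign alone 4 lay above both lines and 4 below both. AGR2, a disulfide isomerase of mucus-producing cells, was called higher at 353 FPKM in H358, 48.05 in PC9 and 37.5 in PC9M; it is named after its value was seen. NF-kB genes had 1 of 15 higher and 2 lower, Notch genes 0 of 13 and 1, and the aryl hydrocarbon receptor axis 0 of 9 and 2. Sterol synthesis had 1 of 26 higher and 1 lower, and glycolysis and hypoxia genes 2 of 26 and 3. ATF4 targets had 1 of 24 higher and 1 lower, with medians of -0.78 to PC9 and 1.48 to PC9M. G1 regulators had 1 of 17 higher and 0 lower, and broadly expressed reference genes 2 of 27 and 1. Among the longer marker lists of other cells, 0 of 4 leukocyte genes measured, 2 of 6 fibroblast and endothelial genes (LUM and KDR) and 0 of 1 neuroendocrine gene were higher, while UCHL1, that neuroendocrine gene, was lower at 19.1 FPKM in H358, 403 in PC9 and 334 in PC9M.

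**Figure D4:**
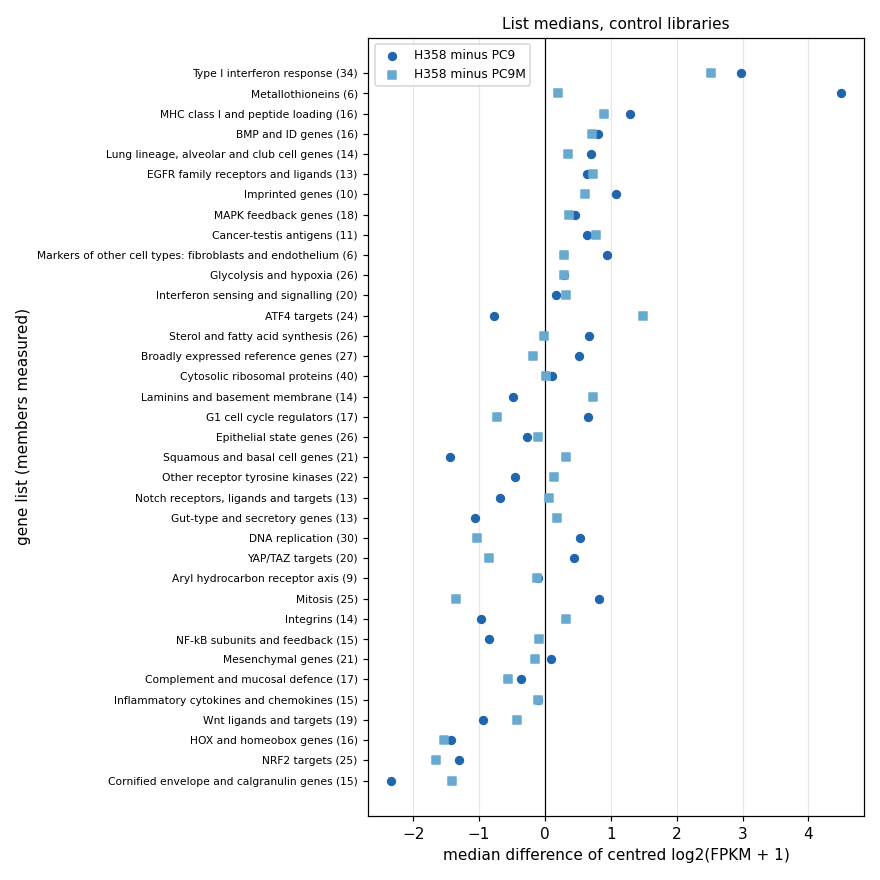
Points give the median difference of centred log2(FPKM + 1) of H358 to PC9 (circles) and to PC9M (squares) for 36 gene lists with at least 5 measured members, the number in brackets. The interferon response list stands above 2 against both lines, the NRF2, HOX and cornified envelope lists below -1 against both, and for mitosis, replication and ATF4 targets the 2 points fall on opposite sides of 0.

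Higher genes were not spread evenly over the chromosomes. Over all protein-coding genes tested, 1240 of 12623 were called higher and 831 lower. On chromosome 4, 136 of 467 protein-coding genes (29.1%) were called higher and 7 lower, and the median difference was 1.16 to PC9 and 0.77 to PC9M. Of the 15 highest genes, CPE, a carboxypeptidase of hormone maturation, and HOPX lie on it. List members named above were not sorted by chromosome, so others of them may lie on it too. Chromosome 8 had 75 of 440 genes higher (17.0%), with medians of 0.59 and 0.52. On chromosome 18, 25 of 166 genes were lower (15.1%) and 4 higher, with medians of -0.12 and -0.49. On chromosome 10, 54 of 490 were lower (11.0%), with medians of -0.21 and -0.61. For chromosomes 18 and 10 the median to PC9 is smaller in size than the centring shift of 0.27, so its sign turns without centring. Chromosome X had 15.7% higher, and chromosomes 17 and 19 had 9.91% and 9.43% lower. In the GNF5 libraries the median (mean of both differences) was 0.89 on chromosome 4 and 0.51 on chromosome 8, beside 0.94 and 0.55 in the controls. The number of gene copies was not tested.

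**Figure D5:**
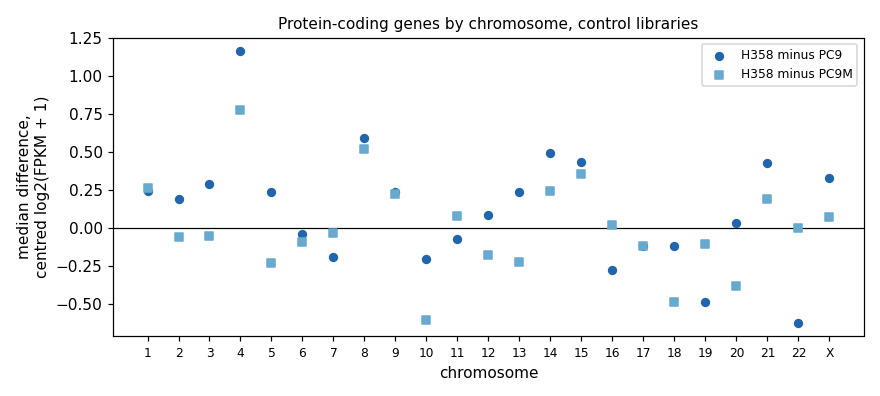
Points give the median difference of centred log2(FPKM + 1) over protein-coding genes of each chromosome, H358 minus PC9 (circles) and minus PC9M (squares). Chromosome 4 stands highest against both lines, at 1.16 and 0.77.

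Of the 1405 genes higher in the controls 954 (67.9%) were also called higher among the GNF5 libraries of the same lines, and these made 82.5% of the 1156 called there among the same genes. Of the 881 lower genes 681 (77.3%) were called lower with GNF5, 67.1% of the 1015 called there. The GNF5 libraries are other cultures but share the scaling of their tables with the controls.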

How the data were processed

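The authors' tables list FPKM per gene for both libraries of a pair. Reads were processed with TopHat and Cuffdiff on hg18, per the submitters' processing notes, with versions not given in the sources used here. The 3 tables with control and GNF5 columns were joined by symbol, after 28 date-like entries and 1591 MIR, SNORD and SNORA entries were left out of each, which gave 21645 genes. Of these, 233 carry a FAIL, HIDATA or LOWDATA status. Listed values were kept, except for 54 genes marked and listed at 0. This was decided after the files were seen, and an earlier plan had left all 233 out. Of 21657 symbols, 20243 matched RefSeq (GRCh38.p14), 18612 as protein-coding. Loci are hg18, with 1 added to each start.

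Differences were taken in Python 3.11.15 with numpy 2.4.6 and pandas 2.3.3, as described above, and the calculation was tested on simulated data. Named genes are protein-coding, with at least 5 FPKM in 1 library and above 0 in all 3, ranked by the smaller difference, 15 each way, with 6 each way listed at 0, the fixed genes, and up to 6 members of a list in the direction of its median plus those called on the other side. Some of these genes and 1 list are not reported here. Other genes named were chosen after their values were seen. Members, 40 lists and rules were chosen with earlier results of these data known, as were the 4 motifs. Alternatives were other pseudocounts, minimum levels, centrings, culture libraries and single reference lines.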

Additional observations from a re-analysis of the deposited data

How the results depend on the processing

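List medians below are over each gene's mean of both differences, and a list is named where its median shifted from the value in brackets by more than 0.58 on the log2 scale, a 1.5-fold change. With a pseudocount of 0.1 FPKM the medians were interferon response 3.99 (2.72), cornified envelope -2.79 (-1.67) and HOX -3.76 (-1.31). With a pseudocount of 5 FPKM the medians were interferon response 1.36, cornified envelope -0.84 and HOX -0.48. With no minimum level the medians were cornified envelope -1.05, lung lineage -0.20 (0.67), metallothioneins -0.0405 (2.29), cancer-testis -0.0951 (0.51), imprinted -0.22 (0.60) and fibroblast and endothelial -0.18 (0.43). With a minimum of 5 FPKM the medians were Wnt -0.12 (-0.91) and HOX -3.17. In the GNF5 libraries the medians were interferon response 1.96, lung lineage 0.0725 and NF-kB -1.05 (-0.42). With scrambled PC9 and PC9M libraries the medians were interferon response 1.996, squamous -1.14 (-0.17), gut-type 0.37 (-0.24), replication -1.40 (-0.32), mitosis -1.12 (-0.36) and ATF4 1.04 (0.28). Without PC9 the medians were G1 -0.73 (-0.0599), replication -1.03, mitosis -1.35, cytokines -0.10 (-0.79), integrins 0.32 (-0.36), laminins 0.73 (0.0779), metallothioneins 0.19 and ATF4 1.48. Without PC9M the medians were squamous -1.43, cornified envelope -2.34, gut-type -1.07, mesenchymal 0.0910 (-0.52), G1 0.65, replication 0.54, mitosis 0.82, cytokines -0.10, integrins -0.96, YAP/TAZ 0.44 (-0.34), metallothioneins 4.50 and ATF4 -0.78. Smaller shifts also turned the sign of medians near 0. Of 37 lists the sign turned for 6 with no minimum level, 1 with a minimum of 5 FPKM, 7 in the GNF5 libraries, 6 with scrambled libraries, 7 without PC9, 7 without PC9M and 1 without status-marked genes, and for 0 with either pseudocount. Without centring it turned for 4, squamous, epithelial, other receptor tyrosine kinases and G1, and with ribosomal centring for 3, laminins, ribosomal proteins and reference genes, while no median shifted by more than 0.58 under any of the 3 other centrings. The GNF5 turns include interferon sensing, -0.0579 (0.31), and glycolysis, -0.0892 (0.42). The cause of these changes was not tested. The counts of 1405 higher and 881 lower genes became 597 and 390 with a pseudocount of 5 FPKM, 2336 and 1970 without PC9, and 3210 and 2807 without PC9M, where 1 line has to agree instead of both. Under the other 9 alternatives, which include leaving out status-marked genes (added after the data were seen), both counts stayed within 1.5 times. For single named genes the smaller of both differences was recomputed, set to 0 where the lines disagreed in direction. Of these 430 values, 106 shifted by more than 0.58 and 0 went from one sign to the other. A disagreement between lines does not enter that count. ABL2 went from 0.34 to 0 in this way with ribosomal centring, GNF5 libraries and scrambled libraries. Of 444 list medians 401 stayed within 0.58. No paired analysis was possible because each group holds 1 library and the labels give no replicate numbers. Without counts, what read depth limits cannot be stated.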

Other observations

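Gene families outside the lists were picked after their values were seen. Their counts are given beside the 10.3% higher and 6.44% lower of all genes tested. Of 36 clustered protocadherins, cell adhesion proteins known from neurons, 27 were at least 2-fold higher in H358 than in both lines and 0 lower, with summed levels of 195 FPKM in H358, 2.45 in PC9 and 8.49 in PC9M. Their genes share 3′ exons, so the separate levels are uncertain. With those sums, most members can have reached 1 FPKM only in H358. Such members could be called higher but not lower, so the count is not free of that filter. Of 46 clustered histone genes 20 were higher and 3 lower, with sums of 741, 239 and 197 FPKM. HIST1H1C, a linker histone, was at 75.9 FPKM in H358, 5.18 in PC9 and 12.8 in PC9M. Zinc finger genes named ZNF were higher for 68 and lower for 10 of 464, with a median difference of 0.41, beside 0.05 over all genes tested. The transcripts SNURF and IPW of the SNRPN region were at 37.6 and 11.7 FPKM in H358 and listed at 0 in both other lines.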
